A study of Mus musculus with 15 samples.

Results

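The genes described here are 10 genes of lymphoid priming, the low expression of lymphocyte genes in a stem or progenitor cell before it commits to a lineage: Flt3, Il7r, Satb1, Notch1, Bcl11a, Lsp1, Ikzf1, Dntt, Il12a and Lck. They were chosen by symbol from the 46123 genes of the tables, and all 10 were found. RNA was sequenced from 15 libraries of 100 sorted mouse hematopoietic stem cells (HSCs) each, all from bone marrow of wild-type C57BL/6 mice aged 8-10 weeks. The tables give exon reads and RPKM, reads scaled to exon length and to a read total. The fresh libraries came from mice on day 4 after 5-fluorouracil (5-FU day4, n = 4), a pyrimidine analog that kills dividing cells, and from untreated mice (Untreated, n = 4). The cultured libraries came from HSCs grown with nifedipine (Nifedipine, n = 4), a blocker of L-type calcium channels, or without it (Control, n = 3), and both sets were sorted for no more than 3 divisions. The labels give no dose and no length of culture, and nothing in the labels says which libraries came from separate mice or cultures, so p-values measure the spread between these libraries only.

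HSCs make all blood lineages, and the lymphoid branch runs through multipotent progenitors that display the receptor FLT3 and then through common lymphoid progenitors that display the interleukin-7 receptor. Nuclear factors such as Ikaros (Ikzf1), BCL11A and SATB1 act before these receptors dominate. Signalling through the NOTCH1 receptor then directs progenitors to the T lineage, and terminal transferase (Dntt) adds bases to the joints of rearranged antigen receptor genes.

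The depth of each library, in exon reads, was from 9775640 to 17397392 in 5-FU day4, from 6171730 to 16685285 in Untreated, from 17582453 to 22372771 in Nifedipine and from 20145079 to 26673045 in Control. Exon reads were 30 to 31.9% of the read total behind the RPKM values in 5-FU day4 and 25 to 26.3% in Untreated, against 31.8 to 38.4% in Nifedipine and 35.5 to 38.9% in Control. The part of this difference in the results was not tested. Each comparison was also fitted with that RPKM total as library size and without TMM, the scaling between libraries used elsewhere. This fit moved the median log2 fold change of all genes to 0.17 in 5-FU day4 and to 0.19 in Control against Untreated. All 12 HSC markers averaged at least 1 CPM (exon reads per 1000000, after TMM scaling over the 15 libraries) in every group. Reads of Cd3e, Cd3g, Trac, Ms4a1, Ighm and Igkc, which define mature T and B cells, were 0 in every library. Other genes of the same marker lists were read, in Untreated up to 25 CPM for the B-cell marker Cr2 and 13.4 CPM for the T-cell and NK-cell marker Cd247. Mki67, a gene of dividing cells, lay at 1151 to 1309 CPM in 5-FU day4 and 56.7 to 327 CPM in Untreated, and at 775 to 869 CPM in Nifedipine and 1474 to 1525 CPM in Control.

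Per exon length, the 3 nuclear or cytoskeletal genes Ikzf1, Lsp1 and Bcl11a stood highest of the 10 in fresh cells. In the deposited RPKM, Ikzf1 averaged 18.3 ± 0.16 in 5-FU day4 and 10.6 ± 0.317 in Untreated (SD, n = 4 each), and Bcl11a averaged 11.6 ± 0.225 in 5-FU day4 and 11.6 ± 0.483 in Untreated. Lsp1 averaged 14.2 ± 1.03 RPKM in 5-FU day4 and 10.1 ± 1.21 RPKM in Untreated. The ranges of these 3 genes overlapped in Untreated. Notch1 came next at 4.97 RPKM in 5-FU day4 and 5.01 RPKM in Untreated, followed in Untreated by Flt3 at 2.21, Satb1 at 1.55, Lck at 1.2 and Il12a at 0.982 RPKM, with overlap between neighbours in that order. In 5-FU day4 the order of these last 4 was Il12a at 1.92, Lck at 1.32, Satb1 at 0.598 and Flt3 at 0.549 RPKM. In the cultured libraries Ikzf1 stood highest, at 14.3 ± 1.3 RPKM in Nifedipine (n = 4) and 12.4 ± 1.11 RPKM in Control (n = 3), and of the 8 genes tested Satb1 and Flt3 stood lowest, at 0.131 and 0.0527 RPKM in Nifedipine and 0.07 and 0.02 RPKM in Control.

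**Figure D1:**
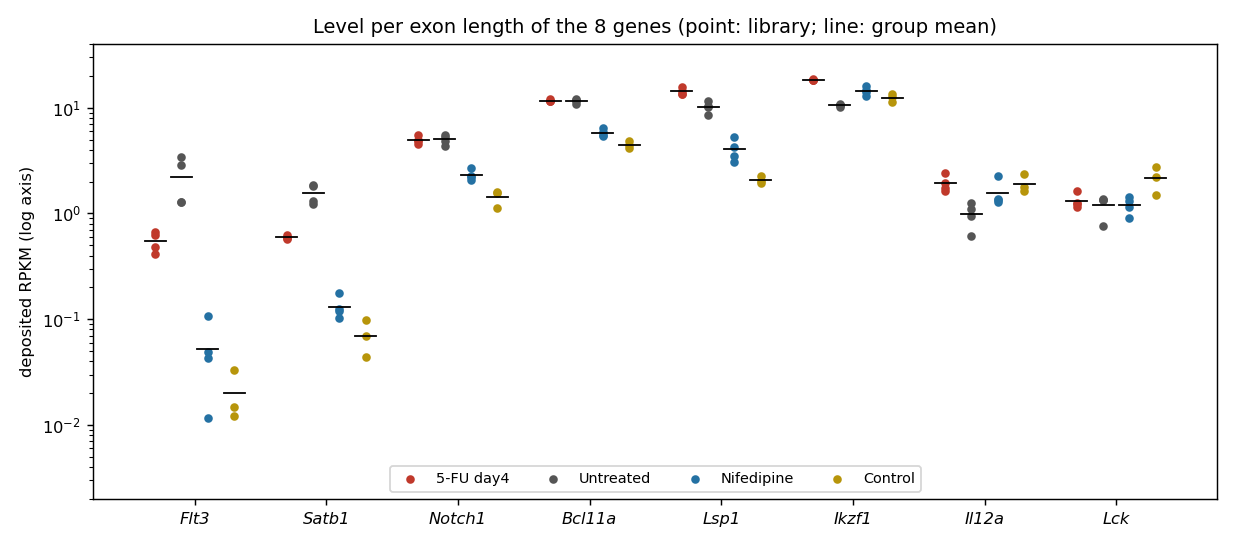
Deposited RPKM (log axis) of the 8 tested genes, with a point for each library and a line at the group mean, for 5-FU day4, Untreated, Nifedipine and Control. Flt3 and Satb1 span the widest range between groups, with means of 0.02 and 0.07 RPKM in Control against 2.21 and 1.55 RPKM in Untreated, and Ikzf1, Il12a and Lck vary much less.

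Il7r and Dntt, the receptor subunit of common lymphoid progenitors and the enzyme of receptor gene rearrangement, were almost unread. Il7r (chr15:9506159-9529935, mm10) had 1 read, in 5-FU day4 replicate 3, and 0 reads in each of the other 14 libraries. Over the 4 Untreated libraries a count of 0 allows up to 0.0561 reads per 1000000, and over the 4 Nifedipine libraries up to 0.0367, against 0.0442 in Control (3 reads over the group, counting error only). Dntt (chr19:41029275-41059525) had 3 reads in Untreated replicate 2, 4 reads in Untreated replicate 3 and 0 reads in the other 13 libraries. In Untreated this is 0.131 reads per 1000000 (exact 95% interval 0.0527 to 0.27), and in 5-FU day4 the count of 0 allows up to 0.0511 reads per 1000000. The exact 95% interval of 5-FU day4 reaches 0.0629 and so overlaps that of Untreated. Both intervals cover counting error only, and the 7 reads in Untreated came from 2 of the 4 libraries. Neither gene passed the low-count filter, so no difference between groups was tested.

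The comparison of 5-FU day4 with Untreated asks how these genes stand in HSCs driven into division in the mouse. Of the 8 genes tested, 3 were higher and 3 lower in 5-FU day4 at an adjusted p of 0.05 or less (edgeR quasi-likelihood test, Benjamini-Hochberg adjustment over 13384 genes), while 50.5% of all genes tested were called, 26.7% higher and 23.8% lower. The median log2 fold change was -0.14 over the 8 genes and -0.02 over all genes tested. The receptor Flt3 and the chromatin organizer Satb1 fell by far more than the other genes moved, Bcl11a fell slightly, and Ikzf1, Lsp1 and Il12a rose. In bulk libraries, fewer cells with a transcript and less of it per cell cannot be told apart. When Untreated replicate 3, which had the highest Mki67 of its group, and 5-FU day4 replicate 4 were left out together, the counts were again 3 higher and 3 lower.

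Flt3 (chr5:147330741-147400489), the receptor tyrosine kinase of lymphoid-primed progenitors, had 12, 7.61, 12 and 9 CPM in 5-FU day4, against 61.5, 73.7, 27.3 and 28.7 CPM in Untreated. All 5-FU day4 libraries lay below all Untreated libraries, and the Untreated libraries themselves formed a higher and a lower pair. The mean was 10.2 ± 2.2 CPM in 5-FU day4 and 47.8 ± 23.4 CPM in Untreated (SD, n = 4 each). The log2 fold change was -2.18 ± 0.33 (SE), or 4.54-fold lower, with an adjusted p of 0.000319 in edgeR. Its promoter, the 250 bases before the start of the gene (chr5:147400490-147400739, minus strand, RefSeq GRCm38.p6), is shown because Flt3 changed most of the 8 genes tested.
Flt3: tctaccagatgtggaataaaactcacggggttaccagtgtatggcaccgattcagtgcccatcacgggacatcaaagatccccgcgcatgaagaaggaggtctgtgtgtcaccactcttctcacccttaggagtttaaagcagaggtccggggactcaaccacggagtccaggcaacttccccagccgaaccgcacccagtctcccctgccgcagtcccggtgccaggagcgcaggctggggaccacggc
None of the 7 motifs searched has its letters in these bases. They were TGGGAA (the core read by Ikaros and by RBPJ, the DNA-binding partner of NOTCH1), CAGCTG and CAGGTG (E-boxes), TGTGGT (RUNX), GAGGAA (PU.1 type), CCGGAA (ETS type) and GGGCGG (SP1), each on both strands.

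Satb1 (chr17:51736187-51833484), a chromatin organizer that HSCs need for lymphoid development, had 24.6, 23, 25 and 23.3 CPM in 5-FU day4, against 86.4, 84.8, 56.6 and 62.9 CPM in Untreated. The 5-FU day4 libraries were nearly alike and lay far below every Untreated library. Its log2 fold change was -1.57 ± 0.14 (SE), 2.96-fold lower, with an edgeR adjusted p of 1.2e-05. Untreated replicates 1 and 2 were the higher pair for both Satb1 and Flt3.

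Bcl11a (chr11:24076544-24173558), a zinc finger repressor needed for B-cell development, had 293, 294, 312 and 316 CPM in 5-FU day4, against 366, 333, 345 and 372 CPM in Untreated. The groups did not overlap, but the step was small, at a log2 fold change of -0.19 ± 0.051 (SE) with an edgeR adjusted p of 0.00863. With the RPKM total as library size the value was 0.0034 (adjusted p 0.963), and with a correction for exon length it was -0.06 (adjusted p 0.287), so this call depended on the scaling.

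Notch1 (chr2:26457902-26503822), the receptor of T-lineage commitment, had 138, 132, 168 and 148 CPM in 5-FU day4, against 183, 151, 161 and 196 CPM in Untreated. The groups overlapped, and the log2 fold change of -0.21 ± 0.096 (SE) missed the threshold (edgeR adjusted p 0.0906). It passed without 5-FU day4 replicate 3 (-0.29, adjusted p 0.0297), without Untreated replicate 2 (-0.26, 0.0424), with DESeq2 (-0.22, 0.041) and under a minimum of 10 CPM (-0.25, 0.0445).

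Ikzf1 (chr11:11684969-11772926), which encodes Ikaros, a zinc finger factor without which lymphoid development fails, had 348, 352, 369 and 369 CPM in 5-FU day4, against 243, 245, 246 and 240 CPM in Untreated. Both groups were tight and far apart. Ikzf1 rose by a log2 fold change of 0.59 ± 0.042 (SE), 1.51-fold, with an edgeR adjusted p of 4.47e-06, and stayed called in all 19 alternatives, between 0.55 and 0.79.

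Lsp1 (chr7:142460812-142494868), an actin-binding phosphoprotein of leukocytes, had 118, 110, 118 and 133 CPM in 5-FU day4, against 100, 84.1, 110 and 104 CPM in Untreated. The lowest 5-FU day4 library fell just under the highest Untreated one. The log2 fold change was 0.29 ± 0.086 (SE) with an edgeR adjusted p of 0.0171, and without 5-FU day4 replicate 4 it was 0.24 with an adjusted p of 0.0502. It was also not called with all 4 groups in 1 fit (0.26, adjusted p 0.07).

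Il12a (chr3:68690644-68698550), the p35 subunit that joins Il12b to make interleukin-12, had 8.13, 9.29, 8.07 and 11.9 CPM in 5-FU day4, against 6.30, 5.37, 6.98 and 3.58 CPM in Untreated. The groups did not overlap, although each library held only 36 to 187 reads of the gene. Its log2 fold change was 0.77 ± 0.24 (SE) with an edgeR adjusted p of 0.0203. Without 5-FU day4 replicate 4 it was 0.64 (adjusted p 0.0625), and with the exon length correction 0.59 (0.0527).

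Lck (chr4:129548344-129573641), the Src-family kinase that starts T-cell receptor signalling, had 8.57, 8.9, 8.54 and 12 CPM in 5-FU day4, against 11.3, 6.41, 11.3 and 11.6 CPM in Untreated. The groups overlapped, with 1 library apart in each, and the log2 fold change was -0.08 ± 0.21 (SE; edgeR adjusted p 0.783). The value was 0.12 with the RPKM total as library size, so neither direction is given for it.

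**Figure D2:**
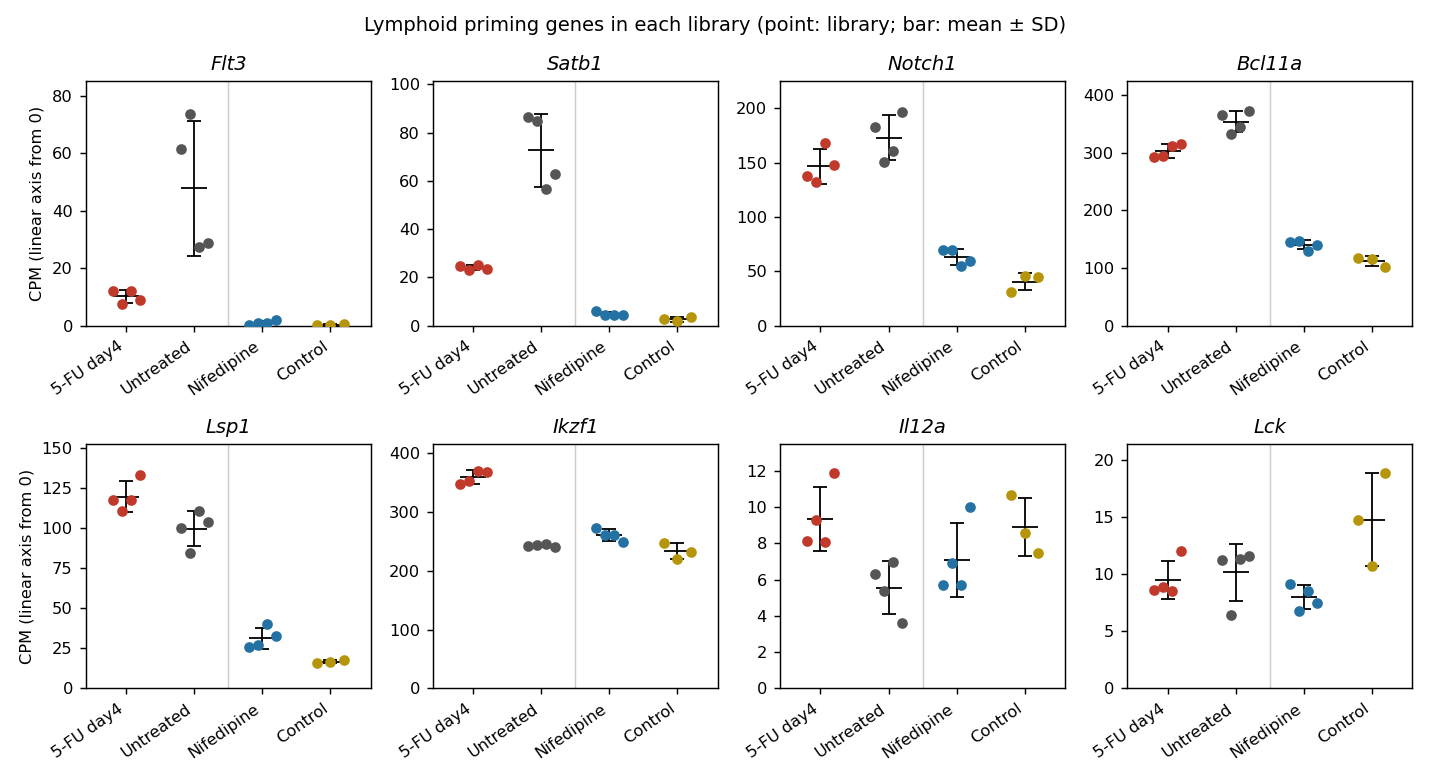
Level (CPM, linear axes from 0) of the 8 tested genes in each of the 15 libraries, as points, with the mean and SD of each group, for 5-FU day4 beside Untreated and Nifedipine beside Control. Flt3 and Satb1 are lower in every 5-FU day4 library than in any Untreated library, Ikzf1 is higher in every one, and Lck is lower in every Nifedipine library than in any Control library.

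The library 5-FU day4 replicate 4 was the highest of its group for Lsp1, Il12a and Lck, and without it 1 gene, Ikzf1, was called higher in place of 3. That library also had 56 reads of Ebf1, the factor that specifies B cells, and 6 reads of Rag1, of the recombinase, while the other 3 libraries of the group had 0 of both. Among Untreated libraries, Ebf1 ranged from 0.114 CPM in replicate 3 to 17.6 CPM in replicate 2. Summed over the 13 B-cell markers in the tables, the level was 28.4 to 40.8 CPM in 5-FU day4 and 53 to 66.1 CPM in Untreated, with 5 of the 13 at 0 in both. The 18 T-cell and NK-cell markers summed to 12.5 to 18.8 CPM in 5-FU day4 and 30.2 to 37.6 CPM in Untreated, with 9 of the 18 at 0 in each. Of the 5 tested genes of each list, 3 B-cell markers and 2 T-cell and NK-cell markers fell and none rose. Those were Cd72 (log2 fold change -1.55), Cd22 (-1.43) and Cr2 (-0.55), and Cd247 (-1.98) and Klrb1c (-0.73). With the RPKM total, 1 gene of each list was called lower. The same held without 5-FU day4 replicate 4, without Untreated replicate 2 and without Untreated replicate 3. It also held without Untreated replicate 3 and 5-FU day4 replicate 4 together. Leaving out any other library changed a count too, so the change was not particular to these libraries. The part of such cells in the fall of Flt3 and Satb1 was not tested.

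Around these genes, the wider lymphoid programme moved unevenly in 5-FU day4. Of 24 tested lymphoid transcription regulators, 11 fell and 1 rose, with a median log2 fold change of -0.33 beside -0.02 over all genes, and with the RPKM total as library size the counts were 6 lower and 4 higher. Among those that fell, Sox4, a factor of early B and T cells, averaged 14.3 ± 1.48 CPM in 5-FU day4 and 31.9 ± 4.51 CPM in Untreated. Ikzf4, an Ikaros-family factor, averaged 10.9 ± 0.884 CPM in 5-FU day4 and 19.1 ± 2.72 CPM in Untreated. Bach2, a repressor in B and T cells, averaged 54.3 ± 6.73 CPM in 5-FU day4 and 81.5 ± 2.13 CPM in Untreated. Their log2 fold changes were -1.12, -0.77 and -0.56, and the single regulator that rose was Tcf3 (0.31), which encodes the E proteins E12 and E47.

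The 22 tested genes of early lymphoid progenitors split, with 6 higher and 8 lower in 5-FU day4. Kit, the stem cell factor receptor, averaged 749 ± 60 CPM in 5-FU day4 and 1167 ± 94.4 CPM in Untreated (log2 fold change -0.61). Cd27, a co-stimulatory receptor of progenitors, fell by 0.69 on the log2 scale. Hmgb1, a DNA-bending protein and partner of the RAG recombinase, rose by 0.61. The HSC markers fell in 9 of 12 cases and rose in none (5 and 1 with the RPKM total). Of these, Hlf, an HSC transcription factor, had a log2 fold change of -0.84 and Mllt3 of -0.67.

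Of the Notch pathway, 4 of 29 tested genes rose and 7 fell in 5-FU day4, but 9 rose and 4 fell with the RPKM total as library size. The 4 that rose were Adam10 (log2 fold change 0.55) and Adam17 (0.29), sheddases of the receptor, Aph1a (0.27), a subunit of gamma-secretase, and the ligand Jag1 (0.60). Dtx3, of the Deltex family, fell by 0.41. Of 3 targets of the pathway, named here after their values were seen, Dtx1 had 0 reads in all 4 groups. Hes1 had 1.55, 3.96, 2.46 and 1.9 CPM in 5-FU day4, against 2.17, 5.82, 4.41 and 9.3 CPM in Untreated (log2 fold change -1.12, edgeR adjusted p 0.0607). Nrarp had 11.8, 9.99, 10.2 and 12.9 CPM in 5-FU day4, against 7.36, 7.16, 11.2 and 8.06 CPM in Untreated (0.43, edgeR adjusted p 0.072). Both sets of values overlapped between the groups.

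The NuRD and corepressor genes, whose products Ikaros binds, went largely with Ikzf1 in 5-FU day4, with 11 of 16 higher and 1 lower (median log2 fold change 0.45; 14 and 0 with the RPKM total). Rbbp7, a histone-binding subunit, averaged 430 ± 6.46 CPM in 5-FU day4 and 234 ± 24.2 CPM in Untreated (0.91). Its relative Rbbp4 rose by 0.79 and the deacetylase Hdac1 by 0.46, while Mta3 fell by 0.36. Several of these subunits also serve chromatin assembly in dividing cells. Mki67 was higher in the same libraries, as given above, and its part was not tested.

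Src kinases and T-cell receptor signalling genes numbered 2 higher and 5 lower of 19 tested in 5-FU day4, but 4 higher and 2 lower with the RPKM total. Lat, the adaptor phosphorylated downstream of Lck, fell by 1.28 on the log2 scale, Plcg1 by 0.38 and Vav1 by 0.34, and the kinase Src (-0.50) and the phosphatase Ptprc (-0.18, and 0.02 with the RPKM total) were the other two lower. Fyn (0.22) and Unc119 (0.56), an activator of Src kinases, were higher. The partner of Il12a, Il12b, was not tested, with 0 reads in 5-FU day4 and 1 read in each of 2 Untreated libraries. Of 9 tested genes of the interleukin-12 family and its receptors, Il12rb2 (0.55) and Stat4 (0.16) rose, and Il6st (-1.12), Jak2 (-0.49) and Tyk2 (-0.46) fell. Dendritic and macrophage markers had 1 higher (Bst2, 0.51) and 1 lower of 8 tested, which was Lyz2 (-0.16, and 0.04 with the RPKM total). Of 6 tested megakaryocyte and myeloid genes, Itga2b (-1.58), Csf3r (-0.98) and Prtn3 (-0.93) fell and none rose.

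**Figure D3:**
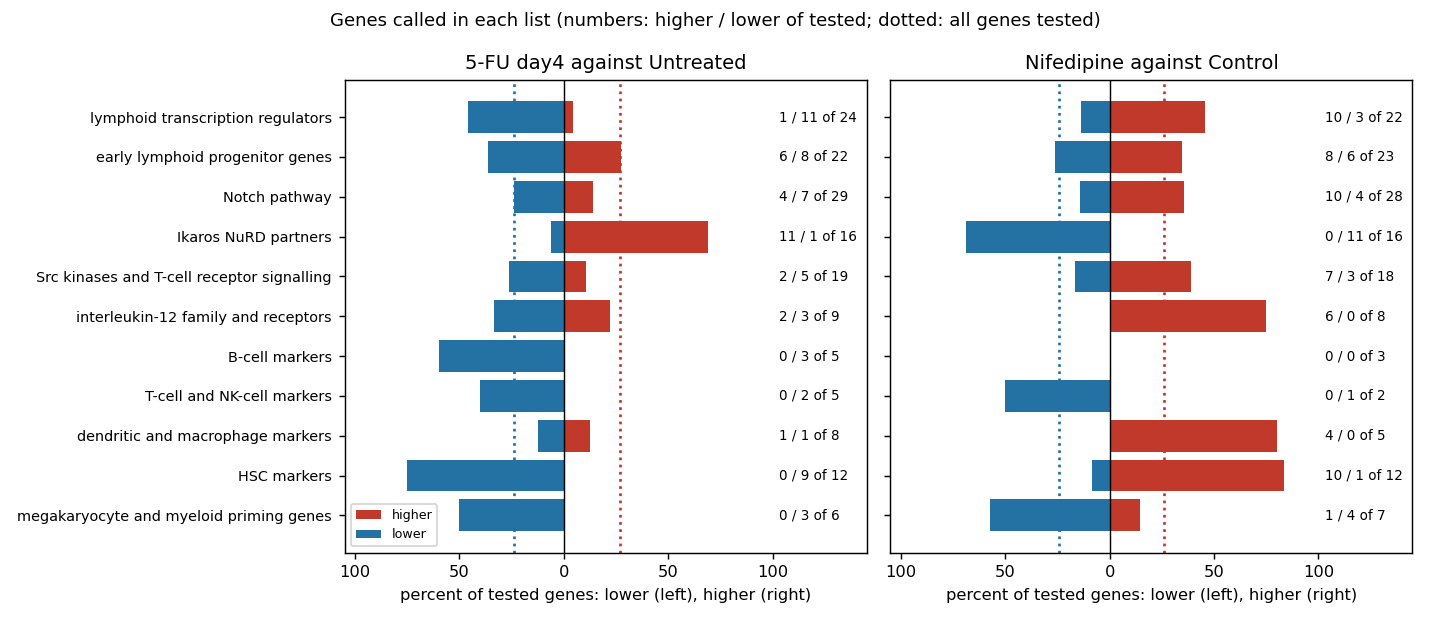
Percent of tested genes called higher (right, red) or lower (left, blue) in each list of related genes, for 5-FU day4 against Untreated and Nifedipine against Control, with the counts beside each bar and dotted lines at the percent of all genes tested. Lymphoid transcription regulators have 11 of 24 lower in 5-FU day4 and 10 of 22 higher in Nifedipine, and the NuRD genes have 11 of 16 higher in 5-FU day4 and 11 of 16 lower in Nifedipine.

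The comparison of Nifedipine with Control asks how the genes stand when L-type calcium channels are blocked during culture. Of the 8 genes tested, 5 were higher and 1 lower in Nifedipine (edgeR, Benjamini-Hochberg adjustment over 12807 genes), beside 49.9% of all genes called, 25.8% higher and 24.2% lower. The median log2 fold change was 0.49 over the 8 genes and 0.02 over all genes tested. Lsp1, Satb1, Notch1, Bcl11a and Ikzf1 rose, Lck fell, and Flt3 and Il12a were not called. The 5 higher calls were not equally firm: the count was 3 without Nifedipine replicate 1, without Nifedipine replicate 3, without Control replicate 2 and with the exon length correction.

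Lsp1 had 25.9, 26.7, 39.8 and 32.3 CPM in Nifedipine, against 15.8, 16.3 and 17.9 CPM in Control. Every Nifedipine library stood above every Control library. Its log2 fold change of 0.90 ± 0.15 (SE), 1.87-fold, had an edgeR adjusted p of 6.11e-05 and held in all alternatives.

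Notch1 had 69.5, 69.4, 54.6 and 59.7 CPM in Nifedipine, against 31.3, 45.4 and 44.3 CPM in Control. The groups did not overlap, and the log2 fold change was 0.65 ± 0.13 (SE) with an edgeR adjusted p of 0.000284. Bcl11a had 146, 147, 130 and 139 CPM in Nifedipine, against 117, 116 and 102 CPM in Control, again without overlap. Its log2 fold change was 0.33 ± 0.074 (SE) with an edgeR adjusted p of 0.00109. The promoter of Notch1 (chr2:26503823-26504072, minus strand, RefSeq GRCm38.p6) is shown because it held the most motif matches of the 3 printed, which the capitals mark.
Notch1: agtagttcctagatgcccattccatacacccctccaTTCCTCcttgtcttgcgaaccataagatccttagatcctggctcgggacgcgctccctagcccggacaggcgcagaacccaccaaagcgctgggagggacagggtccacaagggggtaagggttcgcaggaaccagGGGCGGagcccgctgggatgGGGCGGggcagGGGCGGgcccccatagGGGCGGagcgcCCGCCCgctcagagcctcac
Of its 6 matches, 5 were the SP1 motif GGGCGG, at -78, -58, -47, -31 and, on the opposite strand, -20 bases from the start. The sixth, GAGGAA, lay at -214 on the opposite strand, and no matches overlapped. Windows of 300 bases (250 before to 50 after the start) were also searched, and 9 members have 16 such windows in the RefSeq table. GGGCGG occurred in 35.7% of all 32851 promoters there and in 6 of the 16 member windows. GAGGAA occurred in 28.3% of promoters and in 5 of the 16. Some members have several windows, so a count of genes cannot be set beside these shares.

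Satb1 had 6.20, 4.32, 4.51 and 4.31 CPM in Nifedipine, against 2.58, 1.74 and 3.69 CPM in Control, from 74 to 133 reads per Nifedipine library and 32 to 71 per Control library. All Nifedipine libraries were above all Control libraries, but the gap between the nearest was small. The log2 fold change was 0.86 ± 0.33 (SE) with an edgeR adjusted p of 0.039. It lost the threshold without Nifedipine replicate 1 (0.71, adjusted p 0.128), without Nifedipine replicate 3 (0.89, 0.0581), without Control replicate 1 (0.83, 0.0936), without Control replicate 2 (0.63, 0.142) and with the exon length correction (0.67, 0.108).

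Ikzf1 had 273, 261, 261 and 250 CPM in Nifedipine, against 247, 220 and 232 CPM in Control. These groups nearly touched, and the log2 fold change was 0.16 ± 0.062 (SE) with an edgeR adjusted p of 0.0353. The call was lost without Nifedipine replicate 1 (adjusted p 0.0875), without Nifedipine replicate 3 (0.0601), without Control replicate 2 (0.173), without Control replicate 3 (0.093), with the RPKM total as library size (0.113) and with the exon length correction (0.347).

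Lck was the single gene of the 8 tested that was called lower in Nifedipine. It had 9.10, 6.78, 8.51 and 7.49 CPM in Nifedipine, against 14.7, 10.7 and 18.8 CPM in Control, and no library of Nifedipine reached the lowest of Control. The log2 fold change was -0.88 ± 0.2 (SE), 1.84-fold lower, with an edgeR adjusted p of 0.00108. The 250 bases before the start of Lck (chr4:129573642-129573891, minus strand, RefSeq GRCm38.p6) are shown for its opposite direction to Notch1, with matches in capitals.
Lck: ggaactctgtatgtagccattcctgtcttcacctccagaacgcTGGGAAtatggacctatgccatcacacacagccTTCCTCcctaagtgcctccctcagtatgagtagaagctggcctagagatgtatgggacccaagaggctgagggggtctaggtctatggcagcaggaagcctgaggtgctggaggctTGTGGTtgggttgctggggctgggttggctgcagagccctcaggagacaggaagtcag
These bases held TGGGAA at -207, GAGGAA at -174 on the opposite strand and TGTGGT at -58, and no SP1 match within these 250 bases. Lck has 2 windows of 300 bases in the RefSeq table, and between them they did hold GGGCGG and CAGGTG. Over the windows of 300 bases, TGGGAA occurred in 25.6% of all promoters and in 6 of the 16 member windows (of Bcl11a, Il12a, Lck and Satb1). TGTGGT occurred in 16.8% of promoters and in 3 of the 16 (of Il12a, Il7r and Lck). A match is a description of letters only.

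Flt3 was close to unread in culture, with 4, 14, 16 and 37 reads in Nifedipine (0.187, 0.818, 0.81 and 1.81 CPM), against 5, 5 and 11 reads in Control (0.211, 0.272 and 0.572 CPM). One Nifedipine library lay below all Control libraries and the others above them. The log2 fold change of 1.36 ± 0.8 (SE) had an edgeR adjusted p of 0.17. With so few reads and this spread between the Nifedipine libraries, no difference was called. Il12a had 5.69, 6.90, 5.67 and 9.99 CPM in Nifedipine, against 10.7, 8.55 and 7.49 CPM in Control, with overlap and a log2 fold change of -0.33 ± 0.23 (SE; edgeR adjusted p 0.251).

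**Figure D4:**
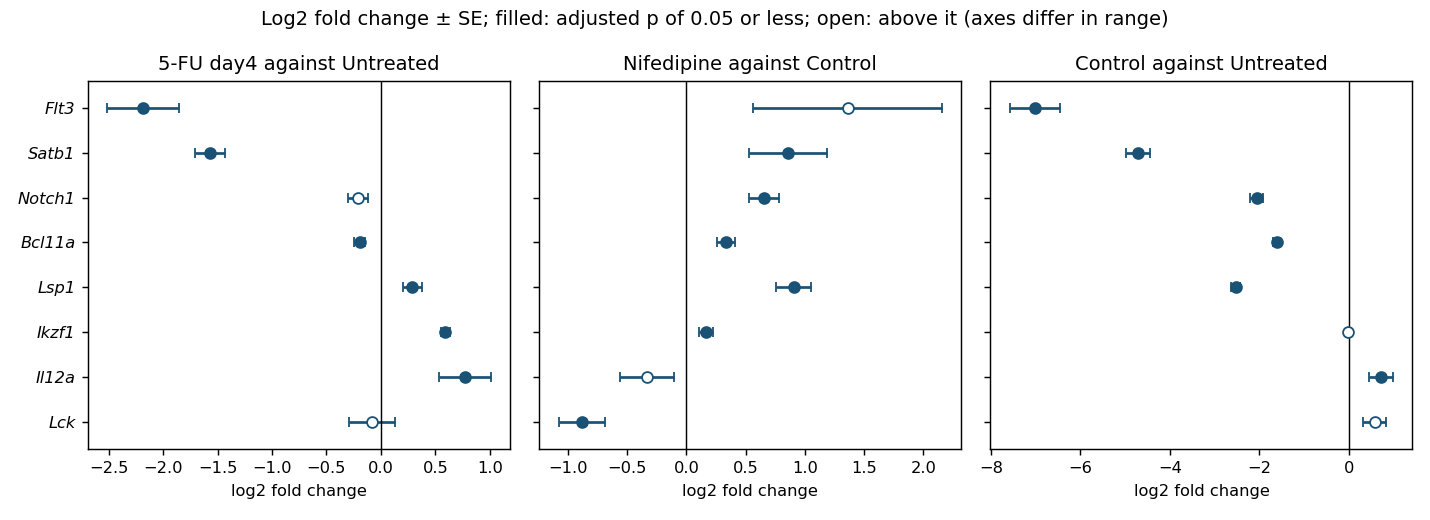
Log2 fold change with its SE of the 8 tested genes in the 3 comparisons, with filled points at an adjusted p of 0.05 or less and open points above it (the axes differ in range). Flt3 and Satb1 lie lowest in 5-FU day4 against Untreated (-2.18 and -1.57) and in Control against Untreated (-7.03 and -4.71), and Lck is the only filled point below 0 in Nifedipine against Control (-0.88).

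Related lymphoid genes in Nifedipine included 10 higher and 3 lower of 22 tested transcription regulators (median log2 fold change 0.25, beside 0.02 over all genes). Id2, an inhibitor of E proteins that acts in innate lymphoid and NK cells, averaged 22.3 ± 2.69 CPM in Nifedipine (n = 4) and 6.67 ± 0.686 CPM in Control (n = 3). Runx2 rose by 1.26 on the log2 scale and Foxo1, an activator of Il7r in lymphocytes, by 1.12. The 3 that fell were Runx3 (14.6 CPM in Nifedipine, 58.8 CPM in Control, log2 fold change -2.0), Tcf3 (-0.51) and Mef2c (-0.27). Early lymphoid progenitor genes had 8 higher and 6 lower of 23. Kit rose by 0.79 and Cd34 by 0.59 on the log2 scale, while Cd48, which is low on HSCs and higher on their progeny, had a log2 fold change of -1.81 and Hmgb2 of -0.76.

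Along the Notch pathway, 10 of 28 tested genes rose and 4 fell in Nifedipine (10 and 1 with the RPKM total as library size). The coactivator Maml2 averaged 55.4 ± 4.96 CPM in Nifedipine and 23.6 ± 6.79 CPM in Control (log2 fold change 1.23), Dtx3 rose by 1.16 and the acetyltransferase Kat2b by 0.70. The 4 that fell were the ligand Jag2 (-1.77), the fringe enzyme Rfng (-0.41), Snw1 (-0.22) and Adam10 (-0.17). NuRD and corepressor genes had 0 higher and 11 lower of 16 (median log2 fold change -0.24; 0 and 6 with the RPKM total), with Mbd3 at -0.79, Hdac2 at -0.65 and Mta2 at -0.63, in libraries whose Mki67 was also lower, a part not tested. Ikzf1 did not share that direction in Nifedipine.

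Signalling genes around Lck had 7 higher and 3 lower of 18 tested in Nifedipine. Lat averaged 5.39 ± 1.2 CPM in Nifedipine and 17.5 ± 1.5 CPM in Control (log2 fold change -1.69), so the adaptor and Lck were both lower. Unc119 (-0.84) and Csk (-0.39), the kinase that restrains Src kinases, were the other two lower, and Ptprc (0.58) and the adaptor Lcp2 (0.50) were among the higher. Of the interleukin-12 family and its receptors, 6 of 8 tested genes rose and 0 fell. Ebi3, which can pair with Il12a to make interleukin-35, averaged 22.6 ± 2.93 CPM in Nifedipine and 7.11 ± 1.16 CPM in Control (log2 fold change 1.67), and Il27ra (0.59) and Stat4 (0.42) rose less. Il12b had 0 reads in Nifedipine and 1 read in 1 Control library.

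Markers of other cells also moved between these groups. Dendritic and macrophage markers had 4 higher and 0 lower of 5 tested, and their sum over 12 genes was 238 to 267 CPM in Nifedipine and 82.7 to 101 CPM in Control. Most of that sum was Lyz2 (log2 fold change 1.67), with Cd68 (0.83), Csf1r (1.60) and Bst2 (0.38) behind it, and the macrophage genes C1qa and C1qb had 0 reads in both groups. T-cell and NK-cell markers summed to 1.77 to 4.67 CPM in Nifedipine and 7.31 to 8.77 CPM in Control, with 11 of 18 at 0 in Nifedipine and 12 of 18 in Control, and Nkg7 of 2 tested genes fell (-2.67). B-cell markers summed to 14.4 to 22.6 CPM in Nifedipine and 16.4 to 20.1 CPM in Control, with 6 of 13 at 0 in Nifedipine and 7 of 13 in Control, and none of 3 tested was called in either direction by edgeR (smallest adjusted p 0.428). HSC markers rose in 10 of 12 cases, among them Ly6a (2.15), Hlf (1.43) and Mecom (0.83), and Slamf1 fell (-1.02). Of 7 megakaryocyte and myeloid genes, Csf3r rose (3.02) and 4 fell: Itga2b (-2.50), Pf4 (-1.56), Vwf (-0.61) and Gata1, which averaged 0.0253 CPM in Nifedipine and 9.81 CPM in Control. The part of these cells in the values of the 10 genes was not tested.

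**Figure D5:**
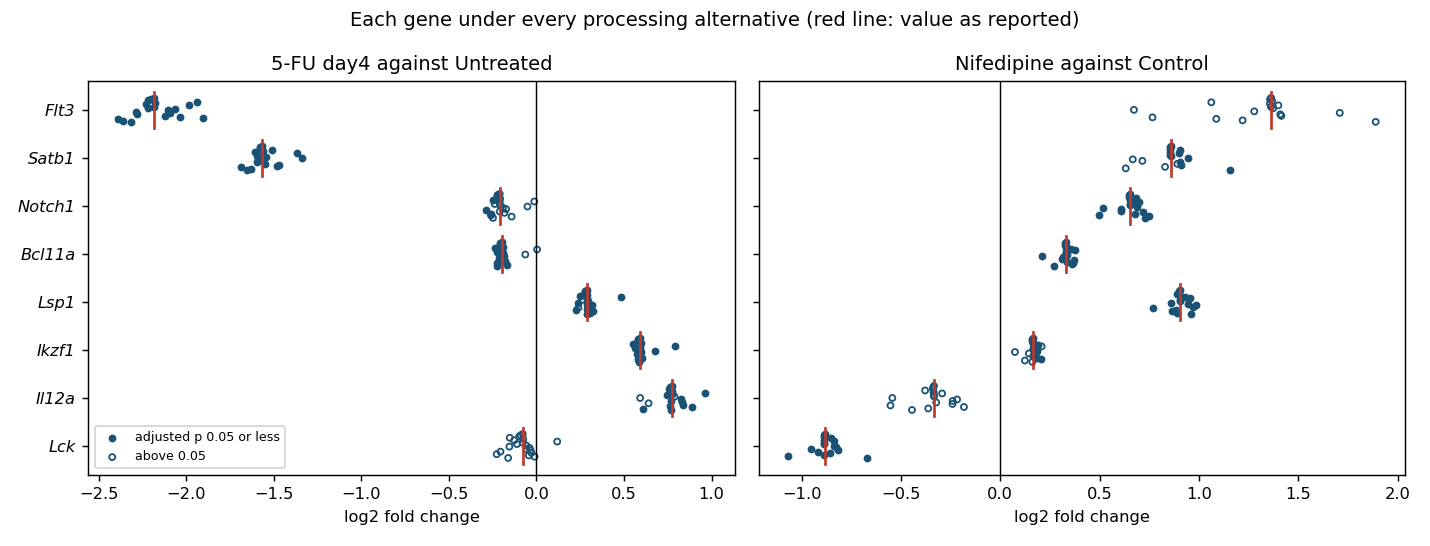
Log2 fold change of the 8 tested genes under each processing alternative, for 5-FU day4 against Untreated and Nifedipine against Control, with the value as reported as a red line, filled points at an adjusted p of 0.05 or less and open points above it. In 5-FU day4 all points of Flt3, Satb1 and Ikzf1 are filled, and in Nifedipine all points of Notch1, Bcl11a, Lsp1 and Lck are, while those of Flt3 are all open.

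The cultured Control libraries differed from fresh Untreated ones for most of these genes, as they did for most of all genes tested. Of the 8 genes tested, 1 was higher and 5 lower in Control (edgeR, Benjamini-Hochberg adjustment over 13520 genes), beside 72% of all genes called, 35.8% higher and 36.1% lower. The median log2 fold change was -1.83 over the 8 genes and -0.05 over all genes tested. The fresh and cultured libraries came from separate experiments, so culture and experiment cannot be told apart, and the comparison shares its Untreated libraries with that of 5-FU day4 and its Control libraries with that of Nifedipine.

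Flt3 averaged 0.352 ± 0.193 CPM in Control (n = 3) and 47.8 ± 23.4 CPM in Untreated (n = 4), a log2 fold change of -7.03 ± 0.56 (SE) with an edgeR adjusted p of 2.52e-06 and 21 reads in all of Control. Satb1 averaged 2.67 ± 0.978 CPM in Control and 72.7 ± 15.2 CPM in Untreated, at -4.71 ± 0.27. Lsp1 was lower by 5.77-fold (-2.53 ± 0.11), Notch1 by 4.15-fold (-2.05 ± 0.14) and Bcl11a by 3.06-fold (-1.61 ± 0.072). The groups of Flt3, Satb1, Lsp1, Notch1 and Bcl11a did not overlap, but the share of all genes without overlap was not counted. Ikzf1, in contrast, averaged 233 ± 13.6 CPM in Control and 243 ± 2.43 CPM in Untreated, with overlap and a log2 fold change of -0.01 ± 0.057 (SE; adjusted p 0.885), though it was called lower under a minimum of 10 CPM (-0.16, adjusted p 0.0274) and higher with the RPKM total as library size (0.23, 0.0172) and with the exon length correction (0.19, 0.0149). Il12a was called higher (0.73 ± 0.27 (SE), edgeR adjusted p 0.0316), a call lost in 6 of 16 alternatives. Its values under the alternatives ran from 0.33 to 0.96. Among the losses were the fits without Control replicate 1 (0.59, 0.129), Control replicate 2 (0.77, 0.0574), Untreated replicate 2 (0.71, 0.0538) or Untreated replicate 4 (0.53, 0.0692). Lck averaged 14.7 ± 4.07 CPM in Control and 10.1 ± 2.49 CPM in Untreated (0.58 ± 0.25 (SE), adjusted p 0.0634), and passed without Control replicate 2 (0.78, 0.0256).

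Each list of related genes except NuRD had more genes called lower than higher in Control, some by little. Of all genes tested, 35.8% were higher and 36.1% lower. The transcription regulators had 4 higher and 16 lower of 25, the early progenitor genes 7 and 11 of 22, the Notch pathway 7 and 15 of 31, Src and T-cell receptor signalling 6 and 8 of 19, and the interleukin-12 family 0 and 7 of 9. With the RPKM total, signalling genes had 9 higher and 8 lower, early progenitor genes 8 and 8, and megakaryocyte and myeloid genes 3 and 3. With the exon length correction, signalling genes had 7 higher and 7 lower, so the direction of these lists depended on the scaling. NuRD genes had 13 higher and 1 lower, Chd3, of 16. HSC markers had 0 higher and 11 lower of 12, B-cell markers 0 and 5 of 5, T-cell and NK-cell markers 0 and 4 of 5, dendritic and macrophage markers 1 and 6 of 8, and megakaryocyte and myeloid genes 3 and 4 of 7.

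Across the 4 groups, by mean CPM after TMM scaling, the genes followed a few orders. Flt3, Satb1, Notch1 and Bcl11a ran from Untreated at the top through 5-FU day4 and Nifedipine to Control. Neighbouring groups in that order did not overlap for Satb1 and Bcl11a, while Untreated and 5-FU day4 overlapped for Notch1 and Nifedipine and Control overlapped for Flt3. Lsp1 had the same order with 5-FU day4 above Untreated, and those groups overlapped. Ikzf1 ran from 5-FU day4 through Nifedipine to Untreated and Control, of which the last pair overlapped. Il12a and Lck had overlapping ranges at every step of their orders, from 5-FU day4 to Untreated for Il12a and from Control to Nifedipine for Lck. The orders depended on the scaling. In the deposited RPKM, Bcl11a averaged 11.6 in both fresh groups, with overlap. Ikzf1 had 10.2 to 10.9 RPKM in Untreated, below the 11.2 to 13.4 RPKM of Control. The share of all genes without overlap was not counted.

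Over the 15 libraries, the genes with the most similar log2 CPM were found for the 7 members with a mean of at least 10 CPM, among 9324 genes past the same minimum. Il12a, Il7r and Dntt were below it. For Satb1 they were Zfp831 and Gprasp1 (Pearson r 0.99 each), for Bcl11a Tns1 and Prdm16 (0.99 each), for Lsp1 Prkcb and Gbp4 (0.99 each) and for Notch1 Il27ra and Pdgfc (0.99 each). Flt3 had Rere (0.98) and Usp3 (0.97), Ikzf1 had Neurl1b (0.93) and Gch1 (0.91), and Lck had Chmp2a (0.85) and Lig3 (0.82). These values describe 15 libraries that fall into 4 groups and 2 experiments, and the steps between groups enter each r. Zfp831, for example, averaged 69.1 CPM in 5-FU day4, 207 CPM in Untreated, 14.7 CPM in Nifedipine and 7.3 CPM in Control.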

How the data were processed

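Libraries were grouped by their labels. By the labels' protocols each library holds 100 sorted cells and was made with a Nextera XT kit, a chemistry that keeps no strand, so reads of overlapping genes cannot be told apart. The submitters' processing notes name the build mm10; aligner and counter: not given in the sources used here. Per the file headers, the authors deposited total exon reads (counts) and RPKM for 48737 features. RPKM served for levels between genes and to recover exon lengths and read totals. Copies of a gene on scaffolds were added up (46123 genes). Of the 10 genes, 6 overlap another feature, all with 0 reads. Each comparison was fitted on its own counts with edgeR 4.0.16 (R 4.3.3): TMM, filterByExpr, quasi-likelihood F test, Benjamini-Hochberg adjustment, called at 0.05 or less. The SE is the log2 fold change over the root of F. The edgeR fit was also run on simulated counts with far fewer changed genes than these data, and its outcome is not used here. Alternatives used DESeq2 1.42.0, limma-voom 3.58.1, other filters and library sizes, and left out each library. The alternative with the RPKM total as library size used no TMM, so both changes enter its values. The genes and lists were chosen with earlier results of these data known. Named list genes are the 3 with the smallest p per list, if called, and those that spell out counts of 5 or fewer, and the 3 promoters printed were chosen after values were seen. Some genes that this rule names are not reported here.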

Additional observations from a re-analysis of the deposited data

Results flagged for a closer look

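Of 26 gene and group combinations of 4 libraries with any reads, 4 had 1 library far from the other 3, where chance gives about 1 in 20. Il7r had 0.0585 CPM in 5-FU day4 replicate 3, from a single read, and 0 in the other 3 libraries. A lone read always stands apart in this way, so that case cannot be set against the chance rate. Satb1 was 6.205 CPM in Nifedipine replicate 1, above the 4.31 to 4.508 CPM of the others. Lck was 11.98 CPM in 5-FU day4 replicate 4, above 8.542 to 8.899 CPM, and 6.412 CPM in Untreated replicate 2, below 11.26 to 11.57 CPM. Untreated replicate 2 was the shallowest library, with 43 reads of Lck.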

How the results depend on the processing

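Of 418 alternative values of the 24 tested member values, 379 kept their direction and side of the threshold, 23 lost the threshold, 9 gained it and 7 changed sign. Leaving out 1 library at a time gave 1 to 3 members higher in 5-FU day4, 3 to 5 higher in Nifedipine and 0 to 1 higher in Control against Untreated. With the exon length correction, chosen after seeing the data, 3 members were higher in Nifedipine. Under a minimum of 10 CPM, 0 were lower in Nifedipine and 0 higher in Control, since Lck and Il12a were not tested there, nor was Il12a in 5-FU day4 or Flt3 and Satb1 in Nifedipine. In Control against Untreated, 3 were higher with the RPKM read total and 2 with all 4 groups in 1 fit. The fit with the RPKM read total, which used no TMM, moved the median of all genes to 0.17 in 5-FU day4 and 0.19 in Control. It gave 5148 genes higher and 1839 lower in 5-FU day4 (3580 and 3185 as reported). In Control it gave 5848 and 3831 (4842 and 4887), and in Nifedipine 3182 and 2295 (3298 and 3098). Without a low-count filter the median in Control was -0.21, and with all 4 groups in 1 fit -0.13. The signs that changed were Bcl11a (0.0034) and Lck (0.12) in 5-FU day4 with that total, and Ikzf1 in Control with that total (0.23), without a filter (0.0095), with the length correction (0.19) and over the left-out libraries (-0.0478 to 0.0453, above 0 without Control replicate 2 and, at 0.0027, without replicate 3); the cause was not tested. Same-numbered libraries did not vary together (r -0.170 to 0.173 in 5-FU day4), while those of unlike number ran from -0.489 to 0.446. The numbers were not treated as pairs, although a low r cannot exclude a shared origin. A replicate block gave 2 members higher and 3 lower in 5-FU day4, 5 and 1 in Nifedipine and 1 and 5 in Control, without the fourth library of the larger group in the last 2. Under it Il12a lost the threshold in 5-FU day4 (adjusted p 0.0534) and Control (0.106), and Lck passed in Control (0.0191). Few reads limit Il7r and Dntt, and few reads together with the spread between Nifedipine libraries limit Flt3 in culture.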
